A study of Arabidopsis thaliana with 9 samples.

Results

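The genes described here are the 4 ferritins of Arabidopsis thaliana (FER1, FER2, FER3 and FER4) and 4 genes that move iron into or through the plant, YSL1, IRT1, FRO2 and FRO3. They were selected by gene symbol, and all 8 were found among the 24635 genes of the joined tables, in whole seedlings of 6 days. The study compared wild-type Col-0, a mutant and treated Col-0, with 3 libraries in each group. In the mutant line, melinoe, all seedlings carry an EMS-induced lesion in FMN/FHY (At4g21470), the enzyme that turns riboflavin into FMN and hydrolyses FMN again, and the labels do not say whether the line was backcrossed. The third set, called the riboflavin group here, was Col-0 that received riboflavin, from which flavin cofactors are built, for 8 hours in the dark part of the day, at 0.6 mM in the sample labels and 0.2 mM in the design text. All groups grew on gelled Murashige and Skoog medium with sucrose under long days (16 hours light, 8 hours dark), and no iron treatment is named. The light level is 150 µmol in the sample labels and 100 µmol in the design text. The labels give neither the hour at which the untreated seedlings were taken nor a mock treatment, so effects of riboflavin and of the hour or the dark cannot be told apart. Nothing says that the 3 libraries of a group came from separate cultures, so p-values measure the spread between these libraries.

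Arabidopsis takes iron from soil after reducing it at the root surface. FRO2, a ferric chelate reductase that carries FAD and heme, reduces ferric chelates, and IRT1 takes up the ferrous ion. Both act mainly in the root epidermis and are induced under iron shortage. FRO3 is a ferric reductase of the mitochondria that is also induced under iron shortage. YSL1 carries iron bound to nicotianamine in the shoot vasculature and to seeds. Ferritins store iron in a protein shell inside plastids and mitochondria. FER1 is the main ferritin of leaves and is induced by iron excess, FER3 and FER4 are vegetative ferritins, and FER2 is the ferritin of seeds. The ferritin iron-dependent regulatory sequence is a promoter element through which FER1 is repressed at low iron.

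The regulatory letters before the start codons are shown for FER1, FER2 and FER3, because these 3 share one of them and differ in another. Windows of 28 bases were read from the RefSeq TAIR10.1 genome, on the strand of the gene and 5′ to 3′. The G-box, CACGTG, a site for bHLH and bZIP factors, occurred once in the 500 bases before the start codon of each of these 3 genes. It is in capitals here.
FER1, chr5:229720-229747, minus strand: atccaccctcCACGTGgatctcaatcca
FER2, chr3:3463498-3463525, plus strand: ctcctctttcCACGTGtccaacaaacag
FER3, chr3:20816094-20816121, minus strand: cgtatccatcCACGTGtcaacaatccac

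The G-box began 143, 143 and 127 bases before the start codon in FER1, FER2 and FER3. Among the same windows of 27443 genes, searched on both strands, 9.3% held a G-box. FRO3 also held one, 269 bases before its start codon, and none was found in these windows of YSL1, IRT1 and FRO2. In FER3 the G-box lies before the annotated gene start, and in FER1 and FER2 it lies inside the annotated gene. The 300 bases before the gene start of FER3 (chr3:20816036-20816335, minus strand) are printed to show this, with the G-box in capitals.
FER3: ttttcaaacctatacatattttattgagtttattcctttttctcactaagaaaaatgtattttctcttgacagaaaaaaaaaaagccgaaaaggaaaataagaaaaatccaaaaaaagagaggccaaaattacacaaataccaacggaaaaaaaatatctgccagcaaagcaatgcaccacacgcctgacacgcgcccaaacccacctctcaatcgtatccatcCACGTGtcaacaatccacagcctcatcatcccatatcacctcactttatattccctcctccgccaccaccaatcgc

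A further pair of motifs was found in FER1 and not in FER2 or FER3. CACGAG, the first letters of the ferritin iron-dependent regulatory sequence, began 190 bases before the FER1 start codon, and 9.24% of all genes held these letters. GNATATNC, the site of the phosphate starvation factor PHR1, began 227 bases before it, and 9.19% of genes held it. Both lie inside the annotated FER1 gene, which starts 457 bases before the start codon. Each is in capitals in its window.
CACGAG in FER1, chr5:229767-229794, minus strand: ttggatgtagCACGAGgccgccacacgc
GNATATNC in FER1, chr5:229804-229831, minus strand: aacgtggatcGAATATCCtcacgttcac

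FRO2 also held GNATATNC, at 107 and 66 bases before its start codon. The E-box, CANNTG, which every G-box also matches, was found in 77.2% of genes, and TATAAA in 64.3%. A match of letters is a description and not a shown binding site. In coding sequence, FER3 and FER4 were 79.8% identical, and the other pairs of ferritins were 71.5% to 72.9% identical. FRO2 and FRO3 were 75.2% identical over the aligned bases.

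**Figure D1:**
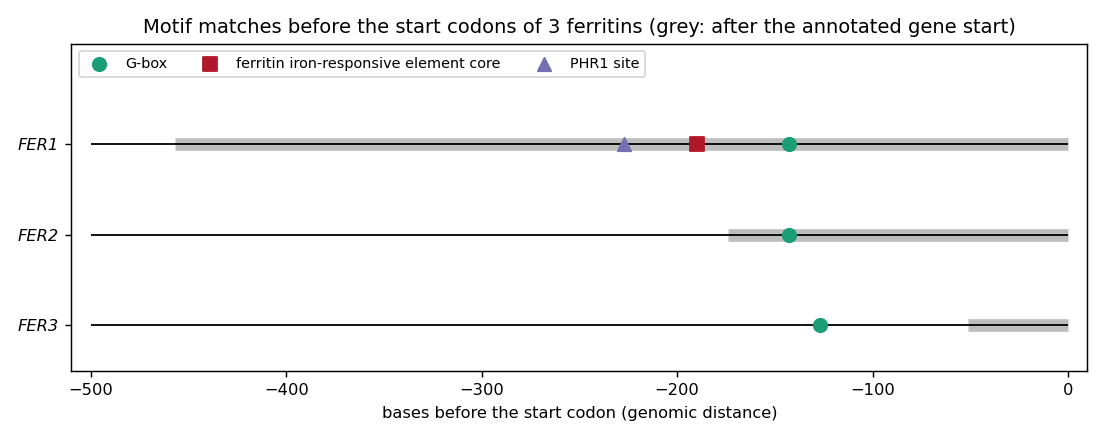
Positions of motif matches in the 500 bases before the start codons of FER1, FER2 and FER3 (x axis, genomic distance in bases), with the stretch after the annotated gene start in grey. Each of the 3 genes has 1 G-box (circles), between 127 and 143 bases before the start codon, and FER1 alone of them also has CACGAG (square) and the PHR1 site (triangle).

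The 9 libraries held from 19964391 to 21421414 counts each. Log2 CPM correlated across genes at 0.996 or more within groups and at 0.97 or less between them. FMN/FHY itself was at 47.0 ± 2.26 TPM in Col-0, 40.7 ± 1.51 in melinoe and 124.3 ± 1.91 in the riboflavin group (SD, n = 3), where TPM is a level scaled for transcript length and library depth, and a point lesion need not alter a transcript's level. The whole transcriptome moved widely. edgeR's quasi-likelihood test with Benjamini-Hochberg adjustment called 50.6% of 20277 genes in melinoe against Col-0, 74.2% of 20356 in riboflavin against Col-0 and 74.1% of 20344 in riboflavin against melinoe, at an adjusted p under 0.05. Both comparisons with Col-0 use the same 3 Col-0 libraries. In these whole seedlings, fewer cells of a type and less RNA per cell cannot be told apart.

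Levels are given in TPM, computed from the deposited counts and the length of the longest annotated transcript of each gene, so that genes can be ordered by level. On this scale FER1 in Col-0 averaged 351.3 TPM, and the mean in the authors' deposited table, from their own lengths, was 320.2 TPM. In Col-0, FER1 stood far above the rest, followed by FRO3, FER4, FER3, YSL1, FER2, FRO2 and IRT1. FER4 and FER3 nearly met there, with the lowest FER4 library at 43.4 TPM and the highest FER3 library at 43.3 TPM. In melinoe the order was FER1, FER3, FER4, FRO3, YSL1, FER2, FRO2 and IRT1, and the libraries of FER4 and FRO3 overlapped in level. In the riboflavin group it was FER1, YSL1, FRO3, FER3, FER4, FER2, FRO2 and IRT1, with no overlap between neighbours. YSL1 thus moved from the fifth place to the second.

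**Figure D2:**
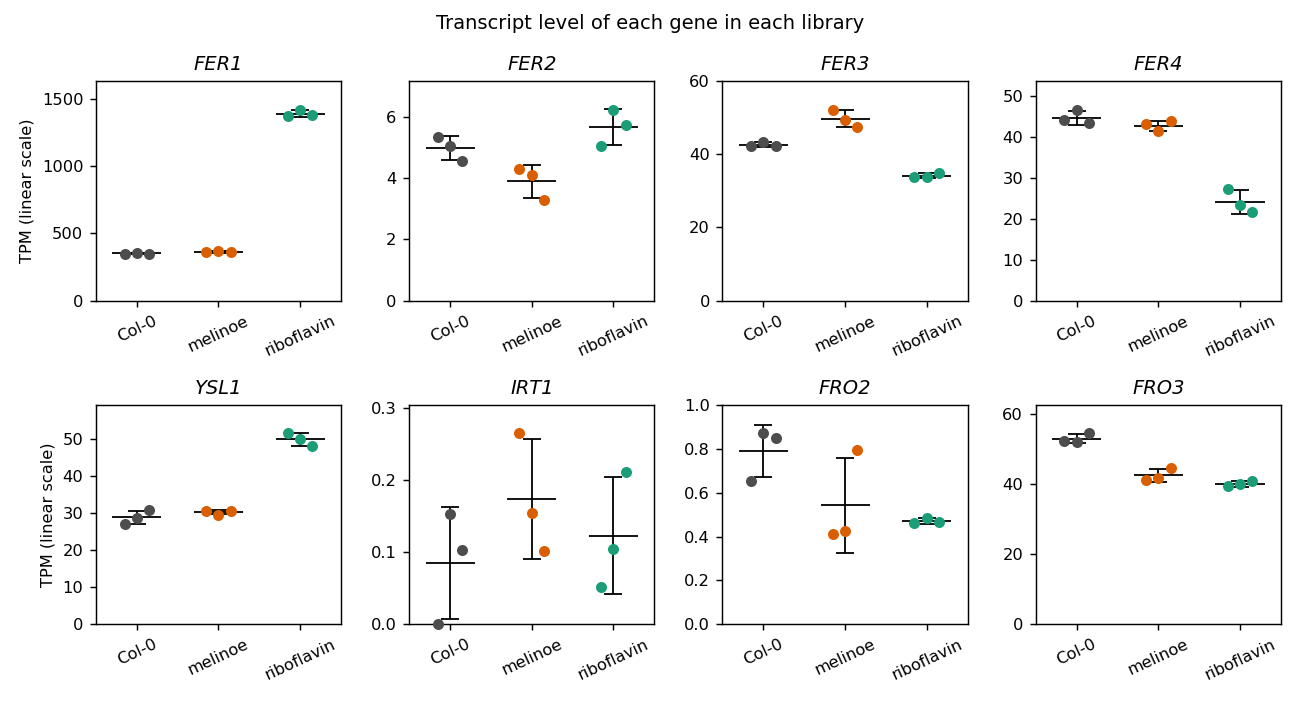
TPM (y axis, linear from 0, scale differs by panel) of each gene in each of the 9 libraries, with points for libraries, lines for group means and bars for the SD (n = 3). FER1 has a mean of 351.3 TPM in Col-0 and is at 1374 TPM or more in all 3 riboflavin libraries, while FER4 and FRO3 are lower there than in Col-0, and IRT1 is at most 0.265 TPM in all 9 libraries.

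Of the 7 genes tested, FER1 had the widest change. Its level in the 3 Col-0 libraries was 349.7, 355.6 and 348.5 TPM, and in the 3 riboflavin libraries it was 1374, 1421 and 1378 TPM. Every riboflavin library stood above every Col-0 library. The fold change was 3.99, with a 95% interval from 3.80 to 4.19 (2.00 on the log2 scale, SE 0.0348, adjusted p = 2.67e-26 by edgeR's quasi-likelihood test). It ranked 484 from the top of the 20356 genes tested. By TPM, FER1 stood between places 400 and 405 among all genes in the Col-0 libraries and between 37 and 41 in the riboflavin libraries. In melinoe it was at 359.8, 370.3 and 360.4 TPM, a little above all Col-0 libraries. That fold change was 1.08 (edgeR quasi-likelihood, log2 fold change 0.11, SE 0.0355, adjusted p = 0.0130), and it lost its call in limma-trend on log2(TPM + 1), at 0.05 with an adjusted p = 0.237.

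FER3 and FER4, the other vegetative ferritins, fell in the riboflavin group while FER1 rose. FER3 was at 42.1, 43.3 and 42.4 TPM in Col-0 and at 33.9, 33.7 and 34.8 TPM in the riboflavin libraries, with no overlap. The log2 fold change was -0.31 (edgeR quasi-likelihood, SE 0.0522, adjusted p = 7.17e-06). In melinoe FER3 was at 52.2, 49.5 and 47.6 TPM, above every Col-0 library, so the ends of its range across groups lay in melinoe and riboflavin. There the log2 fold change was 0.28 (edgeR quasi-likelihood, SE 0.0517, adjusted p = 5.08e-05), a 1.21-fold higher level.

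FER4 was at 44.2, 46.7 and 43.4 TPM in Col-0 and at 27.4, 23.4 and 21.7 TPM in the riboflavin libraries. The 3 riboflavin libraries were all lower than any Col-0 library and differed more among themselves than those of FER3. The log2 fold change was -0.88 (edgeR quasi-likelihood, SE 0.0678, adjusted p = 5.19e-12), a 1.84-fold lower level. In melinoe FER4 was at 43.1, 41.4 and 43.9 TPM, which overlaps Col-0. The log2 fold change there was -0.01, with a 95% interval from -0.12 to 0.10 (edgeR quasi-likelihood, adjusted p = 0.932), and its sign turned without Col-0 library B (0.03) and without melinoe library B (0.02). Of the FER4 transcript's 1203 stretches of 50 bases, 5.74% also occur in AT2G40290, so the split of reads between them is uncertain to that extent.

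FER2, the seed ferritin, was low, at 69 to 82 counts in Col-0. Its level was 5.33, 5.05 and 4.56 TPM in Col-0, 4.30, 4.09 and 3.29 TPM in melinoe and 5.06, 6.24 and 5.73 TPM in the riboflavin group. The melinoe libraries were all below Col-0, and the riboflavin libraries overlapped Col-0. Neither difference from Col-0 passed the test, with log2 fold changes of -0.30 (95% interval -0.60 to 0.01, adjusted p = 0.0991) and 0.20 (95% interval -0.08 to 0.47, adjusted p = 0.184) by edgeR's quasi-likelihood test. The melinoe difference passed in limma-trend on log2(TPM + 1), at -0.29 with an adjusted p = 0.0279.

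Summed over the 4 genes, ferritin transcripts came to 443.6 ± 6.28 TPM in Col-0, 459.9 ± 5.08 in melinoe and 1455 ± 25.4 in the riboflavin group (SD, n = 3). These sums are descriptions and were not tested. FER1 held 79.2% ± 0.270 of the sum in Col-0, 79.0% ± 0.649 in melinoe and 95.6% ± 0.184 in the riboflavin group. Without FER1, the sum was 90.3 to 95.1 TPM in Col-0, 94.7 to 99.6 in melinoe and 62.2 to 66.4 in the riboflavin group. The other ferritins together were therefore lower in each riboflavin library than in any other library. The ratio of FER3 to FER4 was 0.927 to 0.976 in Col-0, 1.08 to 1.21 in melinoe and 1.24 to 1.60 in the riboflavin group, with no overlap between groups. Transcripts of 3 shoot markers (RBCS1A, CAB3 and CA1, of photosynthesis) were lower in the riboflavin group beside FER3 and FER4. They summed to 9506 to 9633 TPM in Col-0, 7405 to 7919 in melinoe and 2690 to 2807 in the riboflavin group. The log2 fold changes in the riboflavin group were -1.70, -2.48 and -2.22, all 3 were called lower in melinoe too, and none was at 0. Their part in the ferritin values was not tested.

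**Figure D3:**
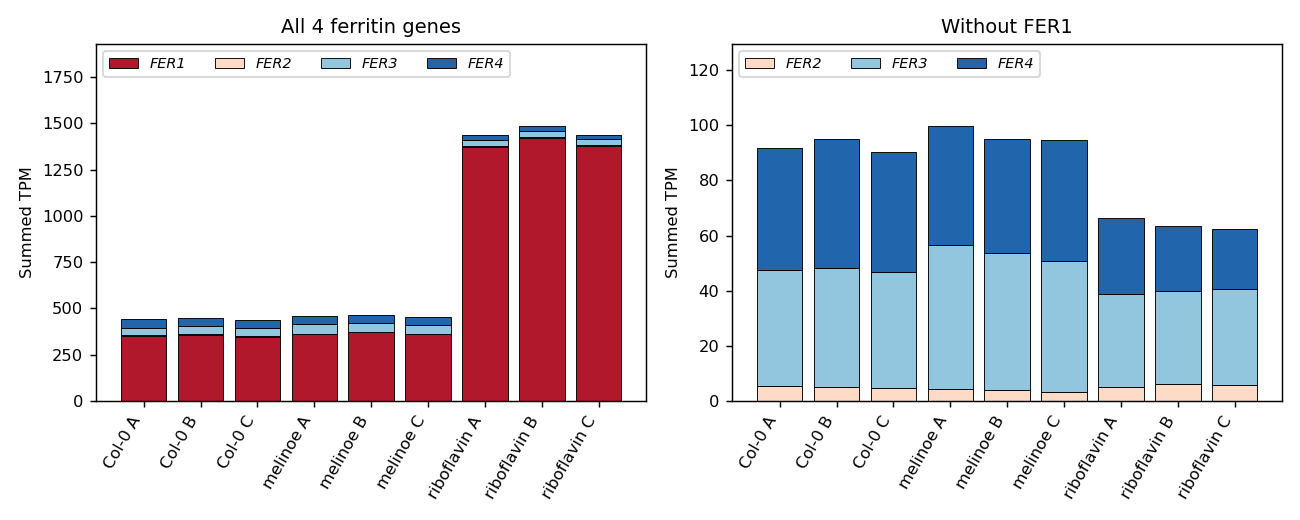
Summed TPM of ferritin genes in each of the 9 libraries (stacked bars from 0), with all 4 genes on the left and without FER1 on the right. The total is 1440 to 1484 TPM in the riboflavin libraries and 438.8 to 465.2 TPM in the others, while the sum without FER1 is 62.2 to 66.4 TPM in the riboflavin libraries and at least 90.3 TPM in the others.

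IRT1 was near the limit of detection, and FRO2, which also acts in root uptake, was low in count. IRT1 had 0, 3 and 2 counts in the Col-0 libraries, 5, 3 and 2 in melinoe and 1, 2 and 4 in the riboflavin group. The groups, with sums of 5, 10 and 7 counts, overlapped, and the filter on low counts removed IRT1 from the test. Without that filter, edgeR's quasi-likelihood test gave log2 differences from Col-0 of 1.03 in melinoe (SE 0.850, adjusted p = 0.355) and 0.51 in the riboflavin group (SE 0.925, adjusted p = 0.65), and none passed. In the authors' deposited table the q-values of IRT1 were 0.54 and 0.773. A difference between groups was not detectable at this depth. FRO2 was at 0.655, 0.872 and 0.851 TPM in Col-0, 0.413, 0.426 and 0.794 TPM in melinoe and 0.462, 0.486 and 0.467 TPM in the riboflavin group. All riboflavin libraries, with 17 or 18 counts, were below Col-0, with 25 to 33 counts, whereas melinoe library C overlapped Col-0.

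The riboflavin difference of FRO2 was -0.73 on the log2 scale (edgeR quasi-likelihood, SE 0.239, adjusted p = 0.00763). It missed the threshold with DESeq2 (adjusted p = 0.0691), and in the authors' deposited table its q-value was 0.0731. In melinoe it was -0.48, with an SE of 0.257 and an upper 95% bound of 0.05 (edgeR quasi-likelihood, adjusted p = 0.126), and without melinoe library C it was -0.86 with an adjusted p = 0.0160. All 9 root markers were detected, the lowest being WER, at 1.02 to 1.75 TPM in the riboflavin libraries. The 9 markers summed to 268.3 to 292.8 TPM in Col-0, 237.0 to 261.5 in melinoe and 162.3 to 165.9 in the riboflavin group, with none at 0. PEP alone went from a mean of 123.8 TPM in Col-0 to 29.8 in the riboflavin group, and without it the sums were 144.4 to 165.2 TPM in Col-0, 125.4 to 137.4 in melinoe and 133.3 to 136.5 in the riboflavin group. In the riboflavin group 7 of the 9 were called lower and 2 higher, where 37.4% and 36.8% of all genes were, and in melinoe 4 were lower and 1 higher, where 25.2% and 25.4% of all genes were. Their part in the FRO2 values was not tested.

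FRO3, the mitochondrial reductase, was lower in both other groups than in Col-0. It was at 52.1, 52.0 and 54.4 TPM in Col-0, 41.2, 41.6 and 44.5 TPM in melinoe and 39.2, 40.0 and 40.9 TPM in the riboflavin group, and no group overlapped another. The log2 fold change was -0.26 in melinoe (edgeR quasi-likelihood, SE 0.0437, adjusted p = 1.63e-05) and -0.39 in the riboflavin group (SE 0.0416, adjusted p = 3.31e-09). In fold terms these are 1.20-fold and 1.31-fold lower levels.

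YSL1, the transporter of iron with nicotianamine, was at 27.1, 28.6 and 30.8 TPM in Col-0 and 51.6, 50.1 and 48.1 TPM in the riboflavin group. The groups were far apart, and the level was 1.74-fold higher (edgeR quasi-likelihood, log2 fold change 0.80, SE 0.0485, adjusted p = 2.81e-14). In melinoe it was at 30.6, 29.6 and 30.7 TPM, which overlaps Col-0. The small difference of 0.13 on the log2 scale passed the test (edgeR quasi-likelihood, SE 0.0499, adjusted p = 0.0331). It kept its call in only 7 of 15 alternatives and lost it in the others, among them DESeq2 (adjusted p = 0.0959). Without Col-0 library A it was 0.08 (adjusted p = 0.219). The ratio of YSL1 to FRO3 in TPM was 0.520 to 0.567 in Col-0, 0.689 to 0.743 in melinoe and 1.18 to 1.31 in the riboflavin group. Of 2 phloem markers, SUC2, a sucrose transporter, was at a log2 fold change of -0.32 in the riboflavin group and 0.13 in melinoe, both called, and APL was called in neither. They summed to 138.3 to 153.5 TPM in Col-0, 146.8 to 149.6 in melinoe and 122.0 to 125.7 in the riboflavin group, with none at 0, and their part in the YSL1 values was not tested.

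**Figure D4:**
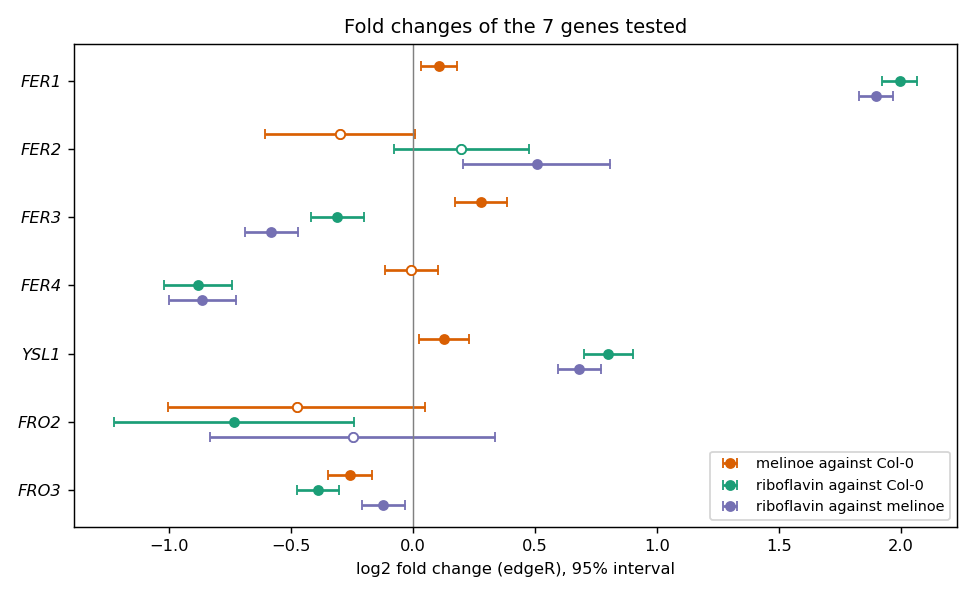
Log2 fold changes (x axis, edgeR, bars for 95% intervals) of the 7 genes tested, in melinoe against Col-0, riboflavin against Col-0 and riboflavin against melinoe, with open points where the test was not passed. FER1 is at 2.00 and 1.90 in the riboflavin comparisons and FER4 at -0.88 and -0.86, and all melinoe values lie between -0.48 and 0.28.

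Of the 7 genes tested, 4 were called in melinoe, 3 higher and 1 lower, where 50.6% of all genes were called, 25.4% higher and 25.2% lower. Of the genes called there, 50.2% were higher, and 39.2% in limma-trend on log2(TPM + 1). The melinoe and Col-0 libraries did not overlap in 4 of the 7, against 57.5% of all genes. In the riboflavin group 6 of 7 were called, 2 higher (FER1 and YSL1) and 4 lower (FER3, FER4, FRO2 and FRO3), where 74.2% of all genes were, 36.8% higher and 37.4% lower. The groups did not overlap in 6 of the 7, against 75.5% of all genes. Over 7 genes, these counts are near the shares of all genes. Only FER1 changed by a log2 fold change of at least 1 in the riboflavin group, where 17.6% of genes did, and none of the 7 did in melinoe, where 6.07% did. YSL1 stood at rank 2144 from the top of the 20356 genes tested, and FER4 at rank 2480 from the bottom.

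Setting the riboflavin group directly against melinoe, with no shared control, showed where the 2 groups differed. They differ in genotype as well as in riboflavin and the hour or the dark, and effects of these cannot be told apart. FER1 was 3.73-fold higher in the riboflavin group (edgeR quasi-likelihood, log2 fold change 1.90, SE 0.0338, adjusted p = 1.39e-28) and YSL1 was 1.61-fold higher (0.68, SE 0.0434, adjusted p = 9.42e-15). FER2 was also higher, by 0.51 (SE 0.146, adjusted p = 0.00274). FER4 was lower at -0.86 (SE 0.0670, adjusted p = 1.08e-12) and FER3 at -0.58 (SE 0.0536, adjusted p = 5.56e-11). FRO3 was -0.12 (SE 0.0432, adjusted p = 0.0130), a call that was lost with DESeq2 (adjusted p = 0.0537), in limma-trend on log2(TPM + 1) (adjusted p = 0.115) and without melinoe library C (-0.09, adjusted p = 0.103). FRO2 gave -0.25, with a 95% interval from -0.83 to 0.34 (adjusted p = 0.443), and 0.13 without melinoe library C. Here 6 of 7 genes were called, 3 in each direction, where 74.1% of all genes were, 37% higher and 37.1% lower. FER1 alone passed a log2 fold change of 1, as 17% of genes did. The groups did not overlap in 6 of the 7, against 75.6% of all genes.

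The wider iron pathway was followed in 64 further genes in 7 lists, of which 54 were tested against Col-0 in each group. In melinoe 23 were higher and 18 lower, so that 75.9% were called, and in the riboflavin group 24 were higher and 23 lower, or 87.0%. As 50.6% and 74.2% of all genes were called, these shares are given as a description. So are the counts in each list below, beside 25.4% of all genes higher and 25.2% lower in melinoe. In the riboflavin group 36.8% of all genes were higher and 37.4% lower. The median log2 fold change over all genes tested was -0.00 in each comparison.

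Among genes for nicotianamine and long-distance transport, the partners of YSL1, 6 of 9 were higher and 3 lower in the riboflavin group, with a median log2 fold change of 0.39. NAS1, a nicotianamine synthase, rose from 50.4 ± 1.87 to 237.2 ± 8.21 TPM (SD, n = 3), 2.25 on the log2 scale (edgeR quasi-likelihood, SE 0.0430, adjusted p = 2.09e-25). ZIF1, which moves nicotianamine into the vacuole, rose by 0.76 and FRD3, which exports citrate into the xylem, by 0.41, while YSL3, which acts together with YSL1, fell by 0.46 on that scale. Of the synthases with lower counts, NAS2 rose from a mean of 4.33 to 39.3 counts (3.20 on the log2 scale, edgeR quasi-likelihood, adjusted p = 1.49e-09). NAS4 fell by 0.85. In melinoe 4 were higher and 2 lower, with a median of 0.07. YSL3 rose there by 0.68, YSL2 by 0.61 and FRD3 by 0.46, and NAS1 fell by 0.33.

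Among genes of vacuole, plastid and mitochondrial iron transport, 4 of 11 were higher and 6 lower in the riboflavin group, with a median of -0.30. NRAMP3, which releases iron from the vacuole, rose from 23.2 ± 0.250 to 234.7 ± 7.04 TPM (SD, n = 3), 3.35 on the log2 scale (edgeR quasi-likelihood, SE 0.0436, adjusted p = 7.05e-29). VTL1, a vacuolar iron transporter-like gene, rose by 1.05, VTL2 fell by 1.05, and PIC1, an iron permease of the chloroplast envelope, fell by 0.93. In melinoe 6 were higher and 4 lower, with a median of 0.13. VTL5 rose by 1.02, and the ferroportins FPN1 and FPN2, which export iron to the xylem and into the vacuole, fell by 1.12 and 0.51, as VTL2 did by 0.67.

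The other ferric reductases, relatives of FRO2 and FRO3, moved in both directions. In the riboflavin group 4 of 5 were lower and 1 higher, with a median of -1.13. FRO4 fell by 1.57, FRO6 by 1.47, FRO8 by 1.13 and FRO7, the reductase of chloroplasts, by 1.10. FRO5 rose by 2.41 (edgeR quasi-likelihood, adjusted p = 1.30e-05), from a mean of 3.67 to 19.3 counts. In melinoe 3 were lower and 2 higher, with a median of -0.80. FRO6 fell by 1.39, FRO7 by 1.22 and FRO8 by 0.80, while FRO4 rose by 0.47 and FRO5 rose from a mean of 3.67 to 61.3 counts (edgeR quasi-likelihood, adjusted p = 5.16e-12). FRO6 and FRO7 share 15.6% and 14.5% of their 50-base stretches with each other, and FRO4 and FRO5 share 5.11% and 4.82% with each other, so the members of each pair are not separate counts to that extent. The 3 shoot markers given beside FER3 and FER4 were lower in both groups as well, and their part in these values was not tested.

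Regulators of the iron response moved in both directions. In the riboflavin group 4 of 11 activators were higher and 5 lower. FIT, the bHLH factor that activates FRO2 and IRT1 in roots, rose by 0.69, bHLH104 by 0.55 and ILR3 by 0.48, while MYB10 fell by 1.47. Of the 4 repressors, BTS, an E3 ligase that acts on the bHLH factors, rose by 1.09 and BTSL2 by 0.22, and PYE and BTSL1 were not called. In melinoe 4 activators were higher and 5 lower. bHLH39, the partner of FIT, rose by 1.02, bHLH34 by 0.29 and bHLH104 by 0.24, and MYB10 fell by 0.75. BTSL1 fell there by 0.63 and PYE by 0.26.

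Root uptake and coumarin secretion held 6 tested genes. In melinoe 4 were higher and 1 lower, with a median of 0.47. F6'H1, the enzyme that opens coumarin synthesis, rose by 1.69 (edgeR quasi-likelihood, SE 0.0453, adjusted p = 7.31e-22), the coumarin exporter PDR9 by 1.03 and the proton pump AHA2 by 0.72, while IRT2, a relative of IRT1, fell by 0.66. In the riboflavin group 2 were higher and 3 lower, with a median of 0.02. PDR9 rose by 1.54 and F6'H1 by 0.24, and BGLU42, a glucosidase of coumarin release, fell by 1.07 and AHA2 by 0.28. Directly compared, F6'H1 was lower in the riboflavin group than in melinoe by 1.44 on the log2 scale (SE 0.0427, adjusted p = 4.84e-23). Among 8 genes of iron-sulfur cluster assembly, 5 were higher and 2 lower in the riboflavin group. Frataxin (FH) rose by 0.48, ISU1 by 0.34 and the cysteine desulfurase NFS1 by 0.30, and SUFD fell by 0.40. In melinoe 3 were higher and 1 lower, and NFS1 rose by 0.19, SUFB by 0.15 and ISU1 by 0.14, while SUFD fell by 0.13.

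**Figure D5:**
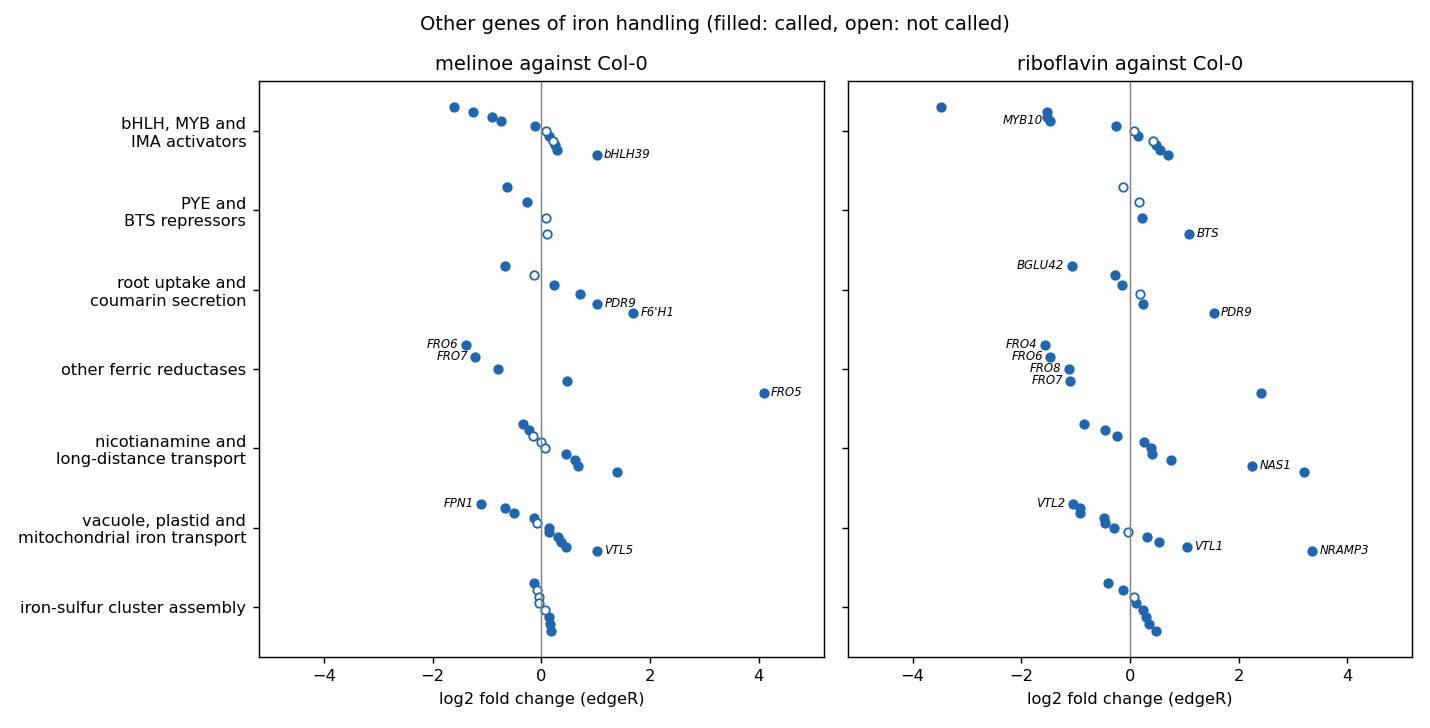
Log2 fold changes (x axis, edgeR) of the tested genes of 7 lists of iron handling (rows), in melinoe against Col-0 on the left and riboflavin against Col-0 on the right, with filled points where called. Labels mark named genes with a change of over 1, such as NRAMP3 at 3.35 and NAS1 at 2.25 on the right and FRO5 at 4.10 on the left, and of the 5 ferric reductases 3 lie below 0 on the left and 4 on the right.

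Across the 9 libraries, the genes closest in pattern were found by the root mean square difference in log2 CPM, centred on the Col-0 mean, over 18047 genes of at least 1 CPM in all libraries. IRT1 and FRO2 were below that level in at least 1 library and were not compared. Closest to FER1 were DHAR2, a dehydroascorbate reductase (0.0721), BGLU10 (0.0770) and AT5G27760 (0.0881), and 8 genes lay within 0.1. Closest to FER4 was LPD1, a plastid lipoamide dehydrogenase (0.0642), with 46 genes within 0.1. Closest to YSL1 was RR2, a cytokinin response regulator (0.0364), with 177 genes within 0.1. Closest to FER3 was AST91 (0.0363), and closest to FRO3 was RHD1, a UDP-glucose epimerase (0.0258), with 192 and 289 genes within 0.1. FER2 had 2 genes within 0.1, the nearest being AT5G13090 (0.0945). The points share libraries, so this likeness is a description.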

How the data were processed

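The deposited data are 2 tables, melinoe against Col-0 (24242 genes) and riboflavin against Col-0 (24249 genes), holding the same 3 Col-0 libraries with identical values. Libraries were polyadenylated and strand-specific, sequenced on DNBSEQ. Per the submitters' processing notes, the authors used Bowtie2, RSEM and DESeq2 on TAIR10, without versions, whereas the design text names SOAPnuke 1.5.2 and HISAT2 2.0.4, so the aligner is not settled, and the counting is not stated to use strand. The authors' deposited expected counts, 1 column a library, are not normalized per the file headers; 1.88% of them were not whole and were rounded here. Deposited TPM values were scaled by the authors for length and depth, and only their group means were read, since column letters name no sample and 1 measure a library was therefore kept, the counts. The 12 TPM columns of single libraries were not used. TPM of single libraries was computed here from rounded counts and the longest TAIR10.1 transcript. Of the deposited statistics, which are log2 fold changes, p-values and q-values, only q-values of IRT1 and FRO2 are printed.

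The tables were joined into 24635 genes, with 386 and 393 genes found in only 1 table set to 0 in the other. All identifiers matched TAIR10.1, from which positions and sequences were read. For each comparison, its 6 libraries were fitted with edgeR 4.0.16 (R 4.3.3), using filterByExpr (minimum count 10, minimum total 15), TMM scaling, the quasi-likelihood F test and Benjamini-Hochberg adjustment over the genes tested, called at 0.05. Fold changes have a prior count of 0.125. Alternatives were DESeq2 1.42.0, other scalings and filters, all 9 libraries in 1 fit, and leaving out each library. The planned limma-trend on deposited TPM was replaced, after the data were seen, by limma-trend 3.58.1 on log2(TPM + 1) and log2(TPM + 0.1) of the computed TPM. In simulated data 200 genes were changed, 50 at each fold, among 20277 genes for melinoe against Col-0 and 20356 for riboflavin against Col-0. For melinoe, edgeR recovered 82% at 1.25-fold and 92% at 2-fold, with 14 false calls. For riboflavin it recovered 60% and 96%, with 11 false calls. Far more genes were called in the data, so these shares do not measure recovery there. The letters A to C of the columns correspond to no replicate number in the labels.

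The 8 genes and the lists were chosen with earlier results of these data known. From each list, up to 4 called genes with the largest absolute fold change, no overlap between groups and 50 or more counts on average in the higher group are named. FRO5, NAS2 and NAS4 in the riboflavin group and FRO4 in melinoe are outside this rule and are given in addition. Identity was computed on coding sequence in place of the planned protein identity, and the 500-base window before the start codon was added after the data were seen. Sequence upstream of FER4 is not reported here, and MYB72 and FRO1 are not analysed here.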

Additional observations from a re-analysis of the deposited data

How the results depend on the processing

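Of 21 gene results, 13 kept their call and direction in every alternative run, among them FER1, FER3, FER4, YSL1 and FRO3 in riboflavin against Col-0, and FER3 and FRO3 in melinoe against Col-0. In melinoe against Col-0, limma-trend on log2(TPM + 1) and log2(TPM + 0.1), both added after seeing the data, gave FER1 0.0493 and 0.0494, no longer called, FER2 -0.29 and -0.35, now called, and YSL1 0.0702 and 0.0723, not called. YSL1 there was 0.11 with upper quartile scaling and 0.13 with DESeq2, not called, and ran from 0.0806 to 0.18 with 1 library left out. FER4 in melinoe ranged from -0.0314 to 0.0299 with 1 library left out, positive without Col-0 B (0.0299) and without melinoe B (0.021), and FRO2 from -0.86, which was called, to -0.32. FRO2 in riboflavin against Col-0 was -0.73 with DESeq2, not called, and in riboflavin against melinoe it ran from -0.41 to 0.13. FRO3 in riboflavin against melinoe lost its call at -0.12 with DESeq2 and at -0.0814 and -0.0831 with limma-trend, and ran from -0.14 to -0.0857, not called without melinoe C. In melinoe against Col-0 the median log2 fold change of all genes tested was -0.0032 in the main fit. It was -0.0533 with limma-trend on log2(TPM + 1) and -0.0607 with limma-trend on log2(TPM + 0.1). The causes were not tested. The mean count of at least 50 removed FRO2, and the planned limma-trend on deposited TPM was not run.

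With the column letters as a replicate block, 10428, 15034 and 15089 genes were called, against 10254, 15100 and 15083 without it. Same-letter libraries of different groups had deviations correlated at -0.024 to 0.0343, so no pairing by letter was seen in these values. Whether same-letter libraries were grown or prepared together is not stated. Among called genes in melinoe against Col-0, 50.2% were higher, and 39.2% with limma-trend on log2(TPM + 1). No alternative changed the count of called genes by over 1.5 times. IRT1 entered a test only without the filter on low counts, and its adjusted p there was 0.355 to 0.65 in the 3 comparisons.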

Other observations

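The IMA peptides, small signals that raise iron uptake, were low in count and outside the rule for naming list genes, and they were singled out after their values were seen. IMA3 had a mean of 20.7 counts in Col-0, 6.33 in melinoe and 1.67 in the riboflavin group. IMA1 had 19.3, 9.67 and 6.33 counts, and IMA2 had 20.3, 8.00 and 6.67. All 3 were called lower in both comparisons with Col-0, which share the Col-0 libraries (edgeR quasi-likelihood, adjusted p = 5.17e-04 and 9.33e-07 for IMA3). For IMA1 in melinoe the adjusted p was 0.0263 by the same test, and the libraries overlapped Col-0 in TPM. Of all genes, 25.2% were called lower in melinoe and 37.4% in the riboflavin group. The activators bHLH38, bHLH100 and bHLH101, too low to be tested, went the other way in the riboflavin group. Their means were 0.116, 0.0217 and 0.146 TPM in Col-0 and 0.527, 0.357 and 0.504 TPM there. IMA1 and IMA2 share 1.37% and 1.28% of their 50-base stretches with each other, so they are not separate counts to that extent.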
